A study of Oryza sativa with 12 samples.

Results

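The nuclear-encoded core subunits of photosystem I were followed as 9 transcripts out of the 42004 loci in a rice FPKM table, chosen by locus ID from published assignments: PsaD (LOC_Os08g44680), PsaE (LOC_Os07g25430), PsaF (LOC_Os03g56670), PsaG (LOC_Os09g30340), PsaH (LOC_Os05g48630), PsaK (LOC_Os07g05480), PsaL (LOC_Os12g23200), PsaN (LOC_Os12g08770) and PsaO (LOC_Os04g33830). FPKM are fragment numbers scaled by transcript length and by library size, so levels of different genes can be set side by side. The study asked how heat changes gene expression in the wild type ZH11, a japonica rice, and in a line labelled as a knockout of GRP3 and GRP162, which encode glycine-rich RNA-binding proteins. There were 12 poly(A) libraries of whole seedlings, 8 days old at treatment, 3 in each of 4 groups. WT_45C is the wild type after heat at 45 °C and WT_29C the wild type kept at 29 °C. dm_45C and dm_29C are the double mutant line under the same treatments. Heat lasted 18 h in one label field and 42 h in another, and which is right cannot be told from them. The labels do not describe the mutant alleles or the number of lines. Nothing says that replicates came from separate cultures, so p-values measure the spread between these libraries, which may be technical.

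Photosystem I uses light to carry electrons from plastocyanin, in the thylakoid lumen, to ferredoxin in the stroma. Its reaction centre is built on plastid-encoded PsaA, PsaB and PsaC, which were not analysed here, and is completed by small nuclear-encoded subunits imported into the chloroplast. PsaD and PsaE form the stromal ridge where ferredoxin docks. PsaF helps to bind plastocyanin on the lumenal side, where PsaN also lies. PsaH, PsaL and PsaO sit on the side where light-harvesting complex II can dock during state transitions, as known from Arabidopsis. PsaG and PsaK contact the light-harvesting complex I antenna.

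The libraries carried between 558435 and 599861 FPKM in sum, with 22101 to 25116 loci above 0 and 11.4% to 24.2% of the sum in the 10 most abundant loci. Read depth is unknown. GRP162 went against its label in replicate 1 of the mutant line, with 12466 FPKM in dm_45C and 3288 FPKM in dm_29C, against at most 3720 FPKM in WT_45C and 1121 FPKM in WT_29C. In replicates 2 and 3 of the line it lay below all wild type libraries at either temperature, at 746 and 699 FPKM in dm_45C and 218 and 265 FPKM in dm_29C. GRP3 had 17604, 10888 and 14023 FPKM in dm_45C, against 14427 to 16321 FPKM in WT_45C, and 4340, 1086 and 1355 FPKM in dm_29C, against 3879 to 5489 FPKM in WT_29C. The alleles are not described, so whether they would lower these transcripts cannot be told. The groups are therefore called the libraries labelled double mutant, and each genotype direction rests on that label. The members' heat responses in these libraries are also given without both replicate 1 libraries. Leaf and root markers were read against the label of whole seedlings. The 4 green tissue markers, 3 Rubisco small subunit genes and Rubisco activase, were all abundant. Of 5 root markers only the silicon channel Lsi1 and the transporter HKT2;1 passed the filter on low values, and Lsi2, NRAMP5 and IRT1 stood at 0.83 FPKM or lower in every library.

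PsaG was listed at 0 in all 12 libraries, so it has no fold change and no test. In the RefSeq gene table the name PSAG lies on chromosome 5, whereas this locus ID lies on chromosome 9. Whether the 0 reflects the locus assigned, the quantification or a missing transcript was not tested. The other 8 members were above 0 in every library and all passed the filter of 1 FPKM or more in at least 3 libraries. PsaH was the most abundant member in every group, with a mean over 12 libraries of 929.8 FPKM and a range of 618 to 1378 FPKM. It ranked between 36th and 54th among all loci of a library. PsaN, PsaL, PsaD, PsaE and PsaF followed with means of 655, 485, 466, 426 and 391 FPKM. PsaK averaged 158 FPKM and PsaO 16.9 FPKM, with PsaO as low as 5.84 FPKM.

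By their FPKM ranges over libraries, the order of the middle members was not resolved. In WT_45C the order by mean was PsaH, PsaN, PsaD, PsaL, PsaF, PsaE, PsaK and PsaO. In WT_29C it was PsaH, PsaN, PsaL, PsaD, PsaE, PsaF, PsaK and PsaO. Neighbours from PsaN down to PsaE in WT_45C and from PsaH down to PsaF in WT_29C overlapped between libraries. In dm_45C PsaN came after PsaH, PsaD, PsaE, PsaL and PsaF, whereas in dm_29C it was second and above every library's PsaL. In these FPKM ranges only the step to PsaO was free of overlap in all 4 groups. The ranges include the spread between libraries. As shares of the members' summed FPKM within a library, more steps were clear. PsaH held at least 23.9% and every other member at most 22.2%. PsaK held at most 5.43%, PsaO less, and the rest at least 8.19%. In WT_29C PsaN (21.3% to 22.2%), PsaL (14.7% to 18.1%) and PsaD (11.0% to 13.0%) were also apart.

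**Figure D1:**
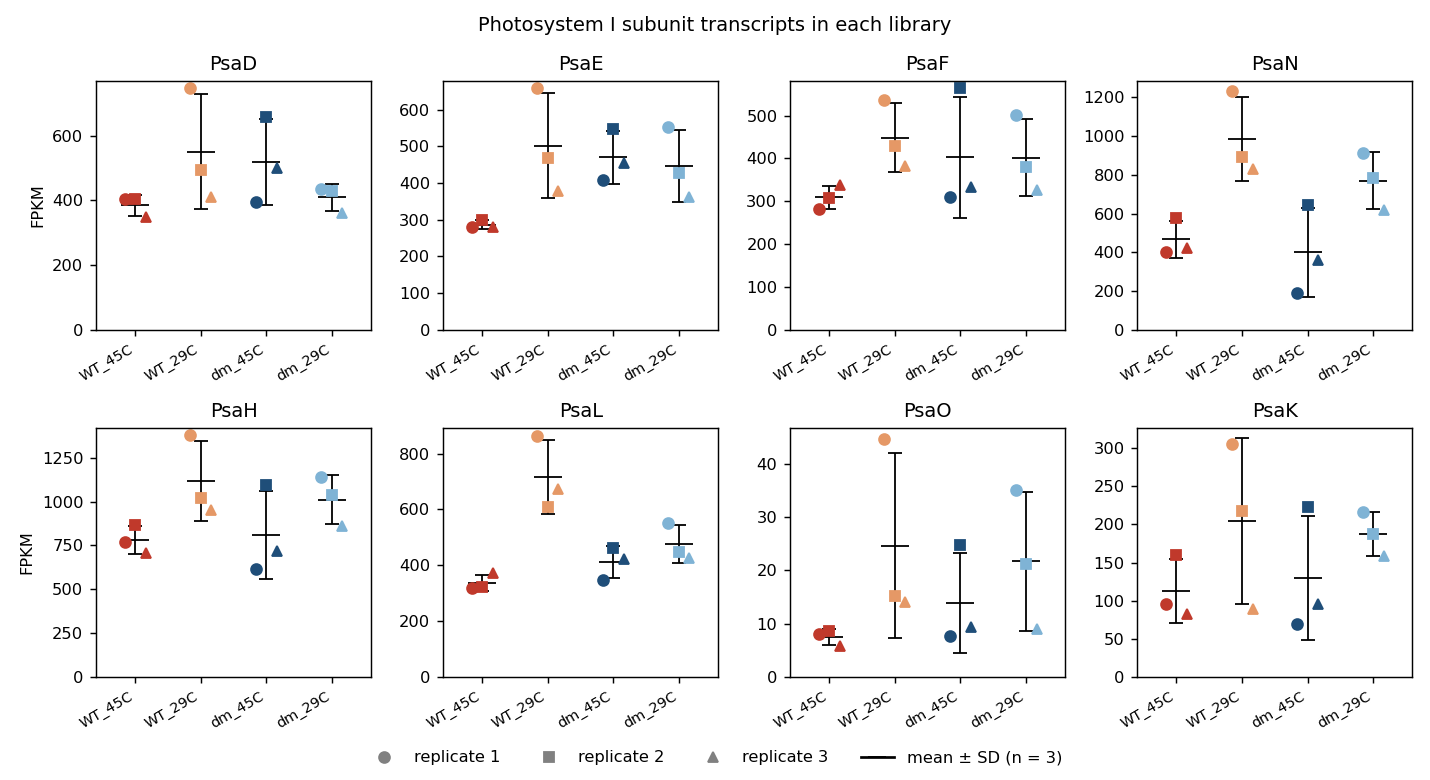
FPKM of the 8 measured photosystem I subunits in each library, with 1 panel per gene, groups on the x axis and FPKM from 0 on the y axis; symbols mark the replicate, and bars give the mean ± SD of 3 libraries. In the wild type every 45 °C library lies below every 29 °C library for all of them but PsaK, and within dm_45C replicate 2 is the highest library for every gene.

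Heat in the wild type lowered PsaL, PsaN and PsaE, 3 of the 8 tested members, and raised none. Over all 20305 loci tested, 15.8% were called lower and 13.3% higher in this comparison. The log2 fold changes of all 8 members were negative, from -1.41 to -0.47 with a median of -0.75, against a median of -0.04 over all loci. Among the 772 loci with a mean of at least 100 FPKM, a class that holds all members but PsaO and PsaG, 20.6% were called lower. In whole seedlings fewer green cells and less of these transcripts per cell cannot be told apart. Fold changes here and below are WT_45C over WT_29C or dm_45C over dm_29C, on the scale of log2(FPKM + 1) with limma, followed by the standard error. A call means a Benjamini-Hochberg adjusted p under 0.05 over all loci tested.

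PsaL, which anchors PsaH and binds light-harvesting complex II on its side of the complex, had 319, 324 and 371 FPKM in WT_45C, against 864, 609.9 and 675 FPKM in WT_29C. Every heat library was below every control library. The log2 fold change was -1.07 ± 0.21, or 2.10-fold lower (limma adjusted p = 0.00262). The call held in all 25 alternatives, with adjusted p between 0.000668 and 0.0152.

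PsaN, the lumenal subunit, had 399, 577 and 425 FPKM in WT_45C, against 1231, 890.5 and 828 FPKM in WT_29C. The groups did not overlap, and WT_29C replicate 1 stood highest. The log2 fold change was -1.07 ± 0.37 (limma adjusted p = 0.0456). That call was close to the threshold and ended in 12 of 25 alternatives. It ended without WT_29C replicate 1 (adjusted p = 0.139), 2 (0.0765) or 3 (0.0661) and without WT_45C replicate 1 (0.136), 2 (0.0518) or 3 (0.108). Leaving out dm_29C replicate 1 (0.0538), 2 (0.059) or 3 (0.0548) or dm_45C replicate 3 (0.0551) ended it too. Those libraries enter through the shared estimate of spread, the filter and the adjustment over loci. The call also ended with no filter (0.0905) and with quantile scaling (0.0803).

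PsaE, on the stromal ridge, had 281, 301 and 279 FPKM in WT_45C, against 659, 467 and 379 FPKM in WT_29C. The heat libraries lay close together and below all controls. The log2 fold change was -0.77 ± 0.24 (limma adjusted p = 0.0304). The call ended in 7 of 25 alternatives, namely without WT_29C replicate 1 (adjusted p = 0.116) or 2 (0.0546), without WT_45C replicate 1 (0.0867), 2 (0.0604) or 3 (0.0716), with no filter (0.0545) and with only the groups compared (0.0526).

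PsaO, one of the docking-side subunits, had the most negative fold change but missed the threshold. It had 8.07, 8.57 and 5.84 FPKM in WT_45C, against 44.7, 15.3 and 14.0 FPKM in WT_29C. WT_29C replicate 1 stood far above the other controls. The log2 fold change was -1.41 ± 0.53 (limma adjusted p = 0.0618), a size that the added 1 understates at this level. It passed without dm_29C replicate 1 (adjusted p = 0.0498) or 3 (0.042), without dm_45C replicate 2 (0.0376), without both replicate 1 libraries of the mutant line (0.0447), with only the groups compared (0.041), with library weights (0.0329) and with the replicate block (0.038).

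The remaining members did not pass in the wild type. PsaD, the ferredoxin-docking partner of PsaE, averaged 385 ± 32.0 FPKM in WT_45C and 551 ± 177 FPKM in WT_29C (SD, n = 3 each). Its log2 fold change was -0.47, with a 95% confidence interval of -1.03 to 0.09. PsaF averaged 309 ± 27.1 FPKM in WT_45C and 449 ± 79.4 FPKM in WT_29C, with an interval of -1.09 to 0.03. PsaH averaged 780.3 ± 81.0 FPKM in WT_45C and 1117 ± 229 FPKM in WT_29C, with an interval of -1.09 to 0.08. For each of these genes the heat libraries lay below all controls, and each interval ended slightly above 0.

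PsaK, at the antenna side, was the 1 member whose wild type groups overlapped. It had 95.3, 160.0 and 82.2 FPKM in WT_45C, against 305, 218 and 88.7 FPKM in WT_29C. WT_29C replicate 3 lay inside the range of the heat libraries. In all, 7 of 8 members had every WT_45C library below every WT_29C library, whereas 23.4% of all tested loci did and 19.2% had the opposite separation. Replicate 1 of the WT_29C group was the highest control for all 8 members, and replicate 3 the lowest for 7 of them.

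**Figure D2:**
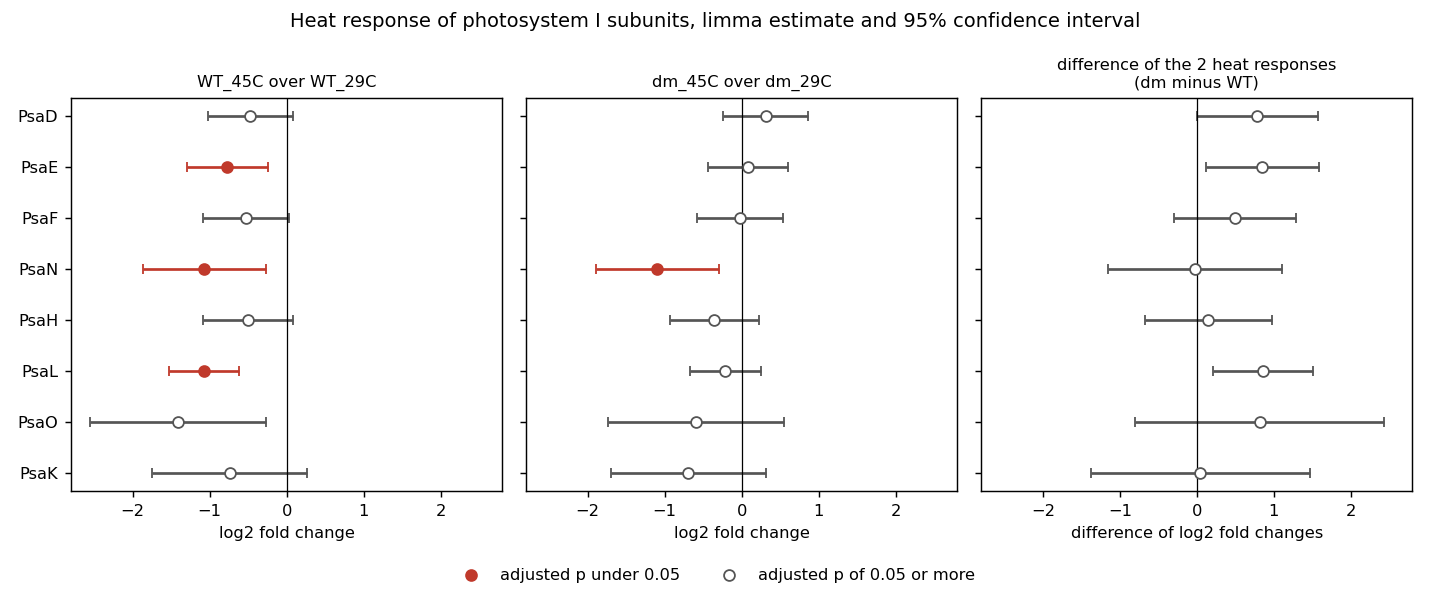
Limma estimates with 95% confidence intervals for the 8 measured subunits, on the log2(FPKM + 1) scale: WT_45C over WT_29C on the left, dm_45C over dm_29C in the middle, and the difference of these responses on the right. Filled points passed an adjusted p of 0.05; PsaE, PsaN and PsaL passed in the wild type, PsaN in the libraries labelled double mutant, and no difference passed.

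In the libraries labelled double mutant, heat lowered PsaN, 1 of the 8 tested members, and raised none. Of all tested loci 16.4% were called lower and 15.3% higher. Among the 772 loci with a mean of at least 100 FPKM, 23.2% were called lower. The median log2 fold change of the members was -0.28, with a range of -1.10 to 0.31, against -0.01 over all loci, and no member had groups that did not overlap, a separation that 23.9% of all tested loci showed downward and 23.7% upward. PsaN had 193, 644 and 362 FPKM in dm_45C, against 911, 783 and 618 FPKM in dm_29C. The dm_45C libraries differed widely, and replicate 2 lay above the lowest control. The log2 fold change was -1.10 ± 0.37 (limma adjusted p = 0.0387).

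The PsaN call was lost when single libraries were left out. It ended without dm_29C replicate 1 (adjusted p = 0.117), 2 (0.0922) or 3 (0.0504), dm_45C replicate 1 (0.149) or 3 (0.0852), WT_29C replicate 2 (0.0506) or WT_45C replicate 1 (0.0521). It also ended with no filter (0.0772) and with only the groups compared (0.0957). Without both replicate 1 libraries, where GRP162 exceeded the wild type, the log2 fold change was -0.53 (adjusted p = 0.319).

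PsaL had 349, 462 and 421 FPKM in dm_45C, against 553, 447 and 425 FPKM in dm_29C. These groups overlapped, and the change of -0.21 ± 0.21 log2 units missed the threshold (adjusted p = 0.475 by limma), with a 95% interval of -0.67 to 0.24. PsaE had 408, 548 and 455 FPKM in dm_45C, against 553, 427 and 361 FPKM in dm_29C, and its interval was -0.44 to 0.61. PsaD had 396, 659 and 499 FPKM in dm_45C, against 436, 429.9 and 362 FPKM in dm_29C. Replicates 2 and 3 of dm_45C exceeded all dm_29C libraries for PsaD, and the log2 fold change was 0.31 ± 0.26 (adjusted p = 0.382). PsaF averaged 403 ± 141 FPKM in dm_45C and 402 ± 90.2 FPKM in dm_29C.

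PsaH averaged 809.6 ± 252 FPKM in dm_45C and 1012 ± 142 FPKM in dm_29C, with an interval of -0.94 to 0.23. PsaK averaged 130 ± 81.7 FPKM in dm_45C and 187 ± 28.7 FPKM in dm_29C, with an interval of -1.70 to 0.31. PsaO had 7.62, 24.7 and 9.34 FPKM in dm_45C, against 35.1, 21.1 and 8.93 FPKM in dm_29C, with an interval of -1.74 to 0.55. Without both replicate 1 libraries the log2 fold changes were 0.54 for PsaD, 0.35 for PsaE, 0.31 for PsaF, -0.09 for PsaH, -0.23 for PsaK, 0.02 for PsaL and 0.14 for PsaO. None of these passed, and PsaF, PsaL and PsaO then had the opposite sign. For all 8 members replicate 2 was the highest and replicate 1 the lowest of the dm_45C libraries. In dm_29C replicate 1 was the highest and replicate 3 the lowest for all 8.

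In 3 of the 4 groups the members thus nearly all ranked the libraries alike, while in WT_45C replicate 2 was the highest for 5 of 8. Their summed FPKM was 2350, 4220 and 2892 in dm_45C and 4345, 3712 and 3118 in dm_29C. In the wild type it was 2558, 2946 and 2553 in WT_45C and 5767, 4143 and 3727 in WT_29C. The summed green tissue markers ranked the libraries of dm_45C, dm_29C and WT_29C in the same order, with 1862, 4811 and 2663 FPKM in dm_45C, 7811, 6090 and 5865 FPKM in dm_29C, and 9790, 5720 and 3659 FPKM in WT_29C. In WT_45C these markers summed to 2453, 4070 and 2750 FPKM. The root marker sum was also lower after heat, at 2.79 to 7.36 FPKM in dm_45C against 38.8 to 56.4 FPKM in dm_29C. In the wild type the sum was 1.98 to 13.6 FPKM in WT_45C against 27.5 to 42.0 FPKM in WT_29C. Lsi1 made up most of it in WT_29C, dm_29C and dm_45C. In WT_45C Lsi1 was at most 2.14 FPKM, and HKT2;1 reached 11.6 FPKM. HKT2;1 averaged 4.25 ± 6.36 FPKM in WT_45C and 2.50 ± 0.37 FPKM in WT_29C, with groups that overlapped. Of the green markers 2 of 4 were called lower with heat in the wild type and 3 of 4 in the libraries labelled double mutant, where 15.8% and 16.4% of all loci were. The part of tissue make-up in the subunit changes was not tested.

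Between the 8 members, Pearson correlations of log2(FPKM + 1) over the 12 libraries ran from 0.46 (PsaD with PsaN) to 0.93 (PsaH with PsaN), with a median of 0.77 over 28 pairs. After each group's mean was subtracted they ran from 0.50 (PsaK with PsaL) to 0.93 (PsaH with PsaO), with a median of 0.83. The points share library, scaling and RNA sample, so these values describe how libraries vary and carry no test.

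Averaged over both genotypes, heat lowered PsaL, PsaN and PsaO, 3 of 8 members, against 24.7% of all tested loci called lower and 22.4% called higher. Among the 772 loci with a mean of at least 100 FPKM, which leave out PsaO, 29.4% were called lower. Of the members in that class only PsaL and PsaN were called lower, a share near that background. PsaN stood at -1.08 ± 0.26 log2 units (adjusted p = 0.00455 by limma) and PsaL at -0.64 ± 0.15 (adjusted p = 0.00355). Both calls held in all 24 alternatives of this comparison. PsaO had an interval of -1.81 to -0.19 (adjusted p = 0.0419), and its call ended in 10 of 24 alternatives. Those were no filter (adjusted p = 0.0767), without both replicate 1 libraries of the mutant line (0.197), and without dm_29C replicate 1 (0.102) or 2 (0.0778), dm_45C replicate 1 (0.093) or 3 (0.0851), WT_29C replicate 1 (0.101) or WT_45C replicate 1 (0.0645), 2 (0.0535) or 3 (0.083). PsaE, which passed in the wild type alone, had -0.34 ± 0.17 (adjusted p = 0.117). PsaD had -0.08, with an interval of -0.47 to 0.31. Without dm_45C replicate 2 the count of members called rose to 6, with PsaF (0.0462), PsaH (0.0186) and PsaK (0.0172) in place of no call. Without WT_29C replicate 3, PsaK passed too (0.0177).

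No member passed in the test of whether the heat responses differed between genotypes, 0 of 8 by limma, against 0.0148% of all tested loci called in either direction. At an unadjusted p under 0.05 there were 2 members, PsaL and PsaE. The difference of log2 fold changes, libraries labelled double mutant minus wild type, was 0.86 ± 0.30 for PsaL (interval 0.22 to 1.503, unadjusted p = 0.0129, adjusted p = 0.911). For PsaE it was 0.85 ± 0.34 (interval 0.11 to 1.59, unadjusted p = 0.027, adjusted p = 0.932), and for PsaD 0.78 ± 0.36 (interval -0.0035 to 1.57, adjusted p = 0.971). Without both replicate 1 libraries of the mutant line these differences were 1.09 for PsaL, 1.11 for PsaE and 1.01 for PsaD, and none passed (adjusted p = 0.999 for each). Thus the calls of PsaL and PsaE in the wild type alone were not shown to be particular to it. For PsaN the difference was -0.03, with an interval of -1.16 to 1.11, so a sizeable difference in either direction remains within the error.

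Between genotypes no member passed at either temperature, 0 of 8 by limma in each. The background was 0.241% of loci called at 29 °C, or 49 loci, and 0.0197% at 45 °C, or 4 loci. Without dm_29C replicate 2 the first count was 9, and without dm_45C replicate 3 the second was 44, again with no member. In the full set 1 member at each temperature had an unadjusted p under 0.05. At 29 °C this was PsaL, with 553, 447 and 425 FPKM in dm_29C against 864, 609.9 and 675 FPKM in WT_29C. Its groups did not overlap, a separation seen at 5.42% of all loci downward and 8.66% upward, and the log2 difference was -0.58 ± 0.21 (adjusted p = 0.406). At 45 °C it was PsaE, with 408, 548 and 455 FPKM in dm_45C against 281, 301 and 279 FPKM in WT_45C. These groups did not overlap either, as at 9.31% of all loci upward and 3.96% downward, and the log2 difference was 0.70 ± 0.24 (adjusted p = 0.524). Without both replicate 1 libraries the difference was -0.70 for PsaL at 29 °C (adjusted p = 0.35) and 0.80 for PsaE at 45 °C (adjusted p = 0.821). With the replicate number as a block, 1 locus instead of 4 passed at 45 °C over the whole table, and again no member. Across the 8 members the log2 differences lay between -0.58 and 0.04 at 29 °C. They lay between -0.37 and 0.70 at 45 °C. Averaged over temperatures they ran from -0.36 to 0.28, with 0 members below an unadjusted p of 0.05, 0 called by limma and 0.34% of all loci called.

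The make-up of the set was read as each member's share of the summed FPKM of all members in a library, which does not depend on library scaling. The share of PsaN was lower after heat in both genotypes, at 15.6% to 19.6% in WT_45C against 21.3% to 22.2% in WT_29C and at 8.19% to 15.3% in dm_45C against 19.8% to 21.1% in dm_29C. The share of PsaD was higher after heat in both, at 13.6% to 15.8% in WT_45C against 11.0% to 13.0% in WT_29C and at 15.6% to 17.3% in dm_45C against 10.03% to 11.6% in dm_29C. These groups did not overlap. PsaF followed the direction of PsaD, at 10.4% to 13.2% in WT_45C against 9.30% to 10.3% in WT_29C and at 11.6% to 13.4% in dm_45C against 10.2% to 11.5% in dm_29C.

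The share of PsaE, by contrast, averaged 10.7% ± 0.43 in WT_45C and 11.0% ± 0.70 in WT_29C, but 15.4% ± 2.21 in dm_45C and 11.9% ± 0.69 in dm_29C (SD, n = 3 each). PsaH took 29.0% ± 1.25 in WT_45C against 24.7% ± 0.83 in WT_29C, and 25.7% ± 0.81 in dm_45C against 27.2% ± 0.90 in dm_29C. PsaL took 12.7% ± 1.78 in WT_45C against 15.9% ± 1.88 in WT_29C, and 13.5% ± 2.17 in dm_45C against 12.8% ± 0.80 in dm_29C. Shares sum to a fixed total, so a lower share of one member raises the others, and they are given as a description without a test.

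**Figure D3:**
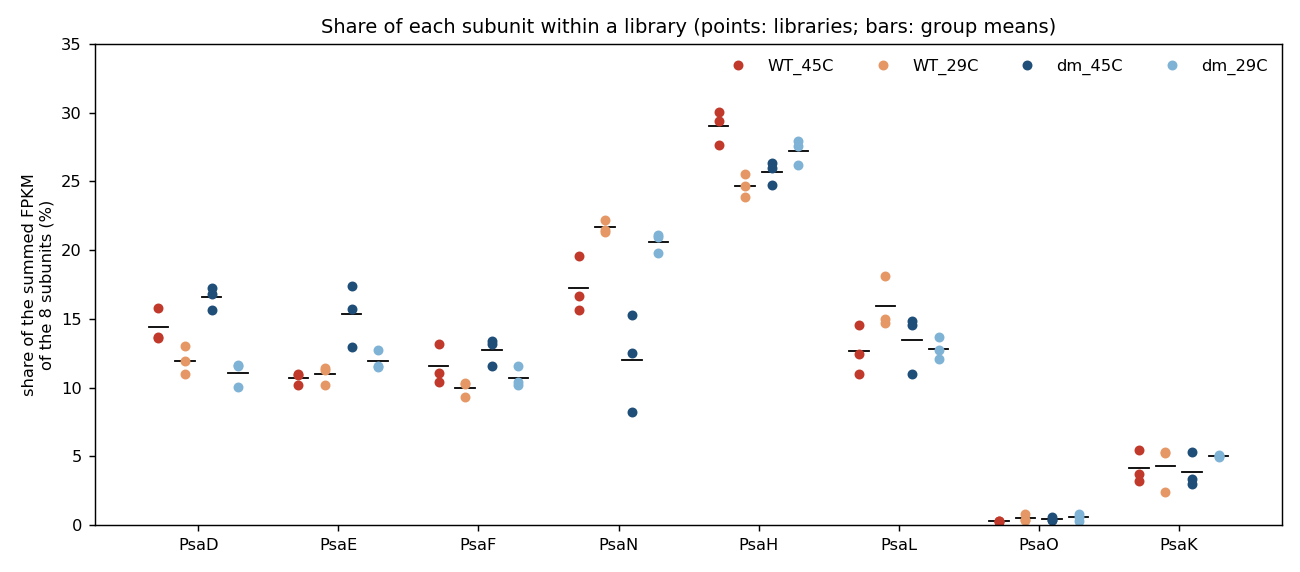
Share of each subunit in the summed FPKM of the 8 measured subunits of the same library, in percent on the y axis; points are libraries and bars are group means. PsaN takes a smaller share and PsaD a larger share in the 45 °C libraries than in the 29 °C libraries of both genotypes, without overlap.

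Of 6 LHCA genes, which encode the chlorophyll-binding proteins of light-harvesting complex I, heat raised 2 and lowered 1 in the wild type, with a median log2 fold change of -0.12. The counts were the same in the libraries labelled double mutant, with a median of -0.14. For this list and those that follow, the shares over all loci were 15.8% lower and 13.3% higher in the wild type and 16.4% lower and 15.3% higher in the libraries labelled double mutant, with medians of -0.04 and -0.01. The share of LHCA genes called lower was near that background. LHCA2 averaged 75.0 ± 2.52 FPKM in WT_45C and 26.5 ± 10.2 FPKM in WT_29C (log2 fold change 1.53, limma adjusted p = 0.00144). It averaged 136 ± 40.3 FPKM in dm_45C and 25.1 ± 4.85 FPKM in dm_29C (adjusted p = 7.74e-05). LHCA4 was at 0.89 FPKM or lower in WT_29C and rose as well, to 5.52 ± 1.66 FPKM in WT_45C, whereas LHCA6 fell to 60.2 ± 8.75 FPKM in WT_45C, against 120 ± 4.41 FPKM in WT_29C. The fall of LHCA6 passed in the wild type (adjusted p = 0.0148) and ended without WT_45C replicate 1 (0.052). In the libraries labelled double mutant it was just past the threshold (adjusted p = 0.0486) and ended in 15 of 25 alternatives, with a log2 fold change of -0.48 (0.323) without both replicate 1 libraries. LHCA5 did not pass, at 64.2 ± 17.0 FPKM in WT_45C and 89.2 ± 36.2 FPKM in WT_29C. LHCA4 and 2 others of the 6 stood at 12.1 FPKM or lower in every library. How the submitters apportioned reads among similar antenna genes is not given, so these low levels, and fold changes read from them, rest on the deposited values alone.

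Of the 5 genes for electron transport proteins upstream or downstream of photosystem I, 2 fell with heat in each genotype and none rose. The medians were -0.62 in the wild type and -0.68 in the libraries labelled double mutant. PetE is plastocyanin, the electron donor of photosystem I, and averaged 696 ± 74.4 FPKM in WT_45C and 1523 ± 567 FPKM in WT_29C (log2 fold change -1.07, limma adjusted p = 0.0331). This call ended without WT_29C replicate 1 (0.123) or 2 (0.051) or WT_45C replicate 1 (0.103), 2 (0.0558) or 3 (0.0768), with no filter (0.0858) and with quantile scaling (0.0723). In the libraries labelled double mutant PetE averaged 696 ± 326 FPKM in dm_45C and 1362 ± 264 FPKM in dm_29C (adjusted p = 0.035), and the call ended in 9 of 25 alternatives, with 0.263 without both replicate 1 libraries and 0.114, 0.0802, 0.12, 0.121 and 0.0504 without dm_29C replicate 1 or 2, dm_45C replicate 1 or 3 or WT_45C replicate 1. LFNR1, a ferredoxin-NADP reductase downstream of photosystem I, averaged 376 ± 44.2 FPKM in WT_45C and 1095 ± 410 FPKM in WT_29C (log2 fold change -1.49, adjusted p = 0.00241, kept in all 25). In the libraries labelled double mutant LFNR1 averaged 293 ± 97.7 FPKM in dm_45C and 685 ± 79.7 FPKM in dm_29C (adjusted p = 0.0056), and the call ended without both replicate 1 libraries (0.0696). Ferredoxin Fd1 averaged 1306 ± 244 FPKM in WT_45C and 1625 ± 338 FPKM in WT_29C, and the Rieske protein PetC 2238 ± 502 FPKM in WT_45C and 2154 ± 284 FPKM in WT_29C, and neither passed.

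Of 5 listed nuclear genes for photosystem II proteins outside its antenna 4 could be tested, and 3 of these fell in the wild type and 1 in the libraries labelled double mutant, with medians of -1.09 and -0.64. PsbQ, a lumenal protein of the oxygen-evolving complex, averaged 355 ± 41.4 FPKM in WT_45C and 860.1 ± 451 FPKM in WT_29C (limma adjusted p = 0.0368). PsbP, of the same complex, fell by 1.03 log2 units (adjusted p = 0.0242), and PsbS1, which serves photoprotective quenching, by 1.79 (adjusted p = 0.0385). Without WT_29C replicate 1 all of these calls ended, with 0.143 for PsbQ, 0.0898 for PsbP and 0.111 for PsbS1, as they did without WT_45C replicate 1, with 0.109, 0.0833 and 0.102 in the same order, and with no filter, with 0.0747, 0.065 and 0.0758. PsbP also ended with quantile scaling (0.079) and with only the groups compared (0.0502). Without WT_29C replicate 2 PsbQ (0.0526) and PsbS1 (0.119) ended, without WT_45C replicate 2 PsbQ (0.0817) and PsbP (0.0603), and without WT_45C replicate 3 PsbQ (0.0588) and PsbS1 (0.134). In the libraries labelled double mutant the gene that fell was PsbS1 (adjusted p = 0.0152), whose call ended without both replicate 1 libraries (0.136), dm_29C replicate 1 (0.0508) or 2 (0.0516) or dm_45C replicate 1 (0.0562), while leaving out dm_45C replicate 2 brought PsbO (0.0145) and PsbQ (0.0449) past the threshold. Of the 7 tested LHCB antenna genes of photosystem II, LHCB1.3, LHCB2 and LHCB3 rose in each genotype, all 3 of them at 18.8 FPKM or lower in every library. None was called lower, with medians of 0.44 in the wild type and 0.65 in the libraries labelled double mutant. In the wild type 2 of the 7 had negative log2 fold changes, the lowest at -1.35 (limma adjusted p = 0.103). LHCB2 averaged 11.3 ± 3.88 FPKM in WT_45C and 1.74 ± 0.97 FPKM in WT_29C. The call of LHCB3 ended without WT_29C replicate 2 (0.0682) or WT_45C replicate 2 (0.0667) in the wild type. In the libraries labelled double mutant it ended without dm_29C replicate 1 (0.124) or 2 (0.0882) or dm_45C replicate 2 (0.119) or 3 (0.0977), and with no filter (0.0718). The GLK1 and GLK2 factors, which activate photosystem genes, did not pass with heat in either genotype, at 72.8 ± 9.21 FPKM in WT_45C against 73.5 ± 8.42 FPKM in WT_29C for GLK1 and 53.7 ± 4.26 FPKM against 72.8 ± 13.7 FPKM in the same groups for GLK2. GLK2 had every heat library below every control in both genotypes, and averaged over genotypes it fell by 0.39 log2 units (limma adjusted p = 0.0267). That call ended without both replicate 1 libraries of the mutant line (0.115), dm_29C replicate 1 (0.0556) or 3 (0.0518), dm_45C replicate 1 (0.0623), WT_29C replicate 1 (0.0648) or 3 (0.0534) or WT_45C replicate 3 (0.0543), while in the wild type alone GLK2 passed without WT_29C replicate 2 (0.039) and with quantile scaling (0.0184), as it did with quantile scaling in the libraries labelled double mutant (0.0402). Differences between these lists were not tested, and the comparisons share their libraries.

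**Figure D4:**
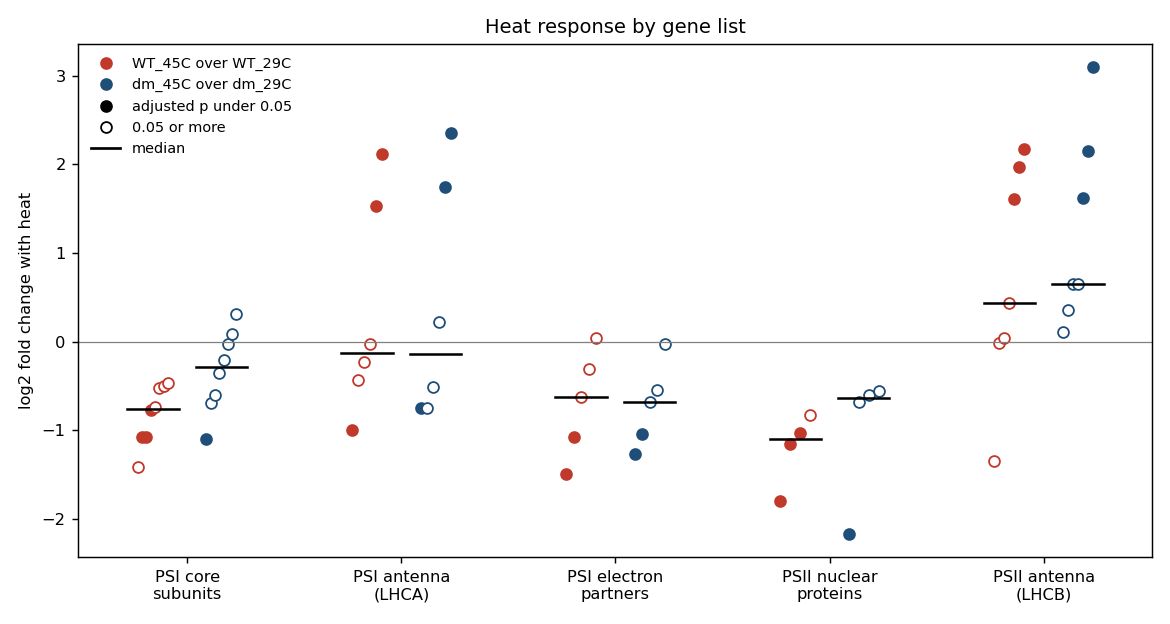
Log2 fold changes with heat for the photosystem I core subunits and 4 related gene lists, WT_45C over WT_29C on the left of each place and dm_45C over dm_29C on the right; points are genes, filled where the adjusted p was under 0.05, and bars are medians. The core subunits lie below 0 in the wild type with a median of -0.75, while both antenna lists hold called genes above 0.

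Among 9411 other loci with a mean of 10 FPKM or more, those most like the mean profile of the 8 members over the 12 libraries were led by PsbQ, with a Pearson r of 0.94. PsbP was the fourth with 0.92. The others among the top 5 were LOC_Os02g37060 (0.94), LOC_Os08g29370 (0.93) and 1 more locus (0.92), which are in none of the gene lists used here. Of the related genes, PsbO had an r of 0.91 and PetE 0.89, LHCA6 0.80 and GLK1 0.24, while LHCA2 had -0.30. Within the set, whose members each enter the mean profile, it was closest to PsaO (0.96) and PsaH (0.95) and least close to PsaD (0.81). These values describe 12 libraries that share 4 groups.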

How the data were processed

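Expression was measured by sequencing of poly(A) RNA, with a dUTP strand mark and molecular identifiers in the adapters, per the labels' protocols. The authors deposited FPKM per locus and library, per the file headers. Tools listed without roles in the submitters' processing notes are StringTie 1.3.4d, HISAT2 2.0.4, edgeR, DESeq2, cutadapt 1.9 and UMI-tools. No genome build was given in the sources used here; coordinates and sequences are therefore not printed. FPKM hold no counts, so depth is unknown, and reads shared between near-identical copies cannot be apportioned.

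From the FPKM, log2(FPKM + 1) was computed for 20305 loci with 1 FPKM or more in at least 3 libraries. A limma fit (limma 3.58.1, statmod 1.5.0, R 4.3.3) with 4 group means, all 12 libraries and an intensity trend gave 7 contrasts. The fit was tested on simulated data. Tables and plots used Python 3.11.15, pandas 2.3.3, numpy 2.4.6 and matplotlib 3.10.9. The members, lists and tests were chosen with earlier results of these data known. Names were given to locus IDs by hand from published assignments. All 9 members are named. Of each other list up to 4 genes are named, chosen as those that pass, taken by mean FPKM, and then the most abundant of the rest.

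Column names carry the code GM for the mutant line, which was assigned because it is the only code besides WT. The genotype label of the mutant line changes its last number with the replicate, and the titles were used. Among 66 library pairs 0 held identical values. No locus ID matched the RefSeq gene table (ASM3414082v1) directly; of the member names PSAH is a synonym there on chromosome 5, as in its locus ID, and PSAG one on chromosome 5, unlike its locus ID on chromosome 9. Deviations from group means of same-numbered libraries correlated at 0.106 to 0.293 between WT_45C and dm_45C, so the titles' replicate numbers were taken to pair those groups. In each other combination of groups at least 1 pair was lower than 0.1, and the numbers were not taken to pair them. The main fit used no pairing, also between WT_45C and dm_45C. The replicate block applied the numbers to all 4 groups, and no test paired WT_45C and dm_45C alone.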

Additional observations from a re-analysis of the deposited data

How the results depend on the processing

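Alternatives were pseudocounts of 0.1 and 5, no filter or one at 5 FPKM, 4 scalings, a replicate block, only the groups compared, robust empirical Bayes, library weights, and leaving out each library or both replicate 1 libraries of the mutant line. Members called with heat in the wild type (3) numbered 1 with no filter and 1 to 4 when single libraries were left out. In the libraries labelled double mutant (1) they numbered 0 with no filter, with only the groups compared and without both replicate 1 libraries, and 0 to 1 when single libraries were left out. Averaged over genotypes (3) they numbered 5 with library weights, which added PsaH (adjusted p = 0.033) and PsaK (0.0294), and 2 to 6 when single libraries were left out. Member counts between genotypes and for the difference of heat responses were 0 under every alternative run. The causes of these changes were not tested.

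Over the 56 values of members and comparisons, 66 of 1376 alternative values changed sign, 0 of them for a value that had passed. In the heat response of the mutant line, PsaF turned positive with median-of-ratios scaling (0.0090), quantile scaling (0.054), sums without the 10 most abundant loci (0.033) and without both replicate 1 libraries (0.31), and ran from -0.30 to 0.14 when single libraries were left out. There PsaH was at 0.050 with quantile scaling, and without both replicate 1 libraries PsaL was at 0.016 and PsaO at 0.14. PsaE ran from -0.058 to 0.25 when single libraries were left out. Averaged over genotypes, PsaD was at 0.092 with quantile scaling and 0.033 without both replicate 1 libraries, and at -0.17 to 0.043 when single libraries were left out, and PsaH was at 0.019 with quantile scaling.

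Under the replicate block 4 members passed with heat in the wild type, where PsaO was added (adjusted p = 0.038), 1 in the mutant line, and 4 averaged over genotypes, where PsaK was added (0.0472). Of 18 same-numbered pairs 6 correlated above 0.1, and 11 of 12 libraries correlated best with a library of their own number, a hint from the data and not from the design. Loci called over the whole table for heat in the mutant line numbered 3822 without both replicate 1 libraries, against 6430. Between genotypes averaged over temperatures, 52 loci were called higher and 17 lower, but 61 and 44 with median-of-ratios and 48 and 32 with quantile scaling, and 17 to 95 in all when single libraries were left out. At 29 °C 49 loci passed, against 24 with the pseudocount of 0.1 and 13 with the filter at 5 FPKM, and 9 (without dm_29C replicate 2) to 64 when single libraries were left out. At 45 °C 4 passed, against 2 with that filter, 7 with only the groups compared and 9 without both replicate 1 libraries, and 1 to 44 (without dm_45C replicate 3) when single libraries were left out. The difference of heat responses had 3, against 0 with that filter or TPM scaling and 7 with the pseudocount of 5, and 0 to 11 (without dm_45C replicate 2) when single libraries were left out.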
